A study of Mus musculus with 10 samples.

Results

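The 10 genes described here encode chemokines, small secreted proteins that guide leukocytes, and they were chosen from their FPKM levels in the same 10 libraries that are reported below. They are Ccl2, Ccl7, Ccl11, Cxcl1, Cxcl2, Cxcl5, Cxcl10, Cxcl12, Cxcl13 and Cx3cl1, 10 of 24813 genes in the table. Their levels are given as a description with no test, because levels of these genes decided that they were listed. All 10 were among the 12544 genes that reached 1 FPKM in at least 2 libraries, although Cxcl13 reached 1 FPKM only in the stromal and Sca-1+ luminal libraries (5 of 10) and Cxcl5 in all but the Sca-1- luminal libraries (7 of 10).

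RNA had been sequenced from prostate cells of C57BL/6 mice aged 8 to 12 weeks after sorting by CD24, CD49f (integrin alpha 6) and Sca-1 (Ly6a), with lineage-positive cells (Lin) gated out. Stromal cells (Lin-, CD24-, CD49f-) gave 2 libraries, basal cells (Lin-, CD24low, CD49fhigh) gave 2, Sca-1+ luminal cells (Lin-, CD24high, CD49flow, Sca-1+) gave 3 and Sca-1- luminal cells (the same gate without Sca-1) gave 3. The labels name no transgene and no treatment. The labels do not state how many animals were pooled, nor that libraries of a group came from different animals, so spread and p-values refer to these libraries alone. A culture protocol for dissociated prostate cells accompanies every library, and whether the sequenced cells were cultured is not stated.

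Chemokines act through receptors on leukocytes and other cells. CC chemokines such as Ccl2 mainly attract monocytes and eosinophils, the ELR-type CXC chemokines Cxcl1, Cxcl2 and Cxcl5 attract neutrophils through CXCR2, and Cxcl10 attracts activated T cells through CXCR3. Cxcl12 and Cxcl13 guide cells through CXCR4 and CXCR5, and Cx3cl1 (fractalkine) is made as a membrane protein. Many of the inflammatory members are transcribed after interleukin 1, TNF or IL-17 signalling through the transcription factor NF-kB, and Cxcl10 also after interferon, through the interferon-stimulated response element (ISRE).

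Of the 10 genes, 6 had an entry in the promoter table of RefSeq (build GRCm38.p6, the assembly of mm10): Cxcl1, Cxcl2, Cxcl10, Cxcl12, Cxcl13 and Cx3cl1. The 250 bases before the start of Cxcl1, Cxcl2 and Cxcl10 are shown because a kappaB-like motif, the kind of sequence that NF-kB binds, lies in each. They cover chr5:90890995-90891244 (plus strand), chr5:90903649-90903898 (plus strand) and chr5:92348890-92349139 (minus strand) and are written 5′ to 3′ on the strand of the gene. Capitals mark the kappaB-like motif (letters GGANTTTCC on either strand) and, in Cxcl10 alone of these 3, also an ISRE-like motif (letters AAANNGAAA on either strand), which is the first run of capitals in that sequence.
Cxcl1: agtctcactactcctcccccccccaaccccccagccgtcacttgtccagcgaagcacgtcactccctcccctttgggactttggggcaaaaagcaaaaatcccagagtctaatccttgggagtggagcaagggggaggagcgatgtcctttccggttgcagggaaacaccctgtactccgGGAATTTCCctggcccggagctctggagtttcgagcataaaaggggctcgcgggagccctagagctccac
Cxcl2: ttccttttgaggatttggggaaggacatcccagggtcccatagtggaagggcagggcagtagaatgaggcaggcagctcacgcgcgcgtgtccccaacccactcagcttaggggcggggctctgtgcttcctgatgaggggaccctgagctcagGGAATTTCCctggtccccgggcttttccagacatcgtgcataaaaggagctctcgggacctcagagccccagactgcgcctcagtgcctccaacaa
Cxcl10: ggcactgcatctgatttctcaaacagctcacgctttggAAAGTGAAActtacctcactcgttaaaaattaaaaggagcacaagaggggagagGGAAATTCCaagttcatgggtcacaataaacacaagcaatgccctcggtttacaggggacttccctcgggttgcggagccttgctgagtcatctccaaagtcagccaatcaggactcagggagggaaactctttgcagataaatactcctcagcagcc
The kappaB-like motif began 70 bases before the start in Cxcl1, 96 bases before it in Cxcl2 and 158 bases before it in Cxcl10. It was found in 350 of 32851 promoter windows of this length (1.07%) and in 3 of the 6 windows of these chemokine genes. The ISRE-like motif was found in 9.37% of all windows and began 212 bases before the start of Cxcl10, with no overlap with the kappaB-like motif. A GC box (letters GGGCGG on either strand) stood in the windows of Cxcl2, Cxcl12 and Cx3cl1, against 32.7% of all windows. A TATA-like motif (letters TATAAA alone, forward) stood in those of Cxcl13 and Cx3cl1, against 7.59%. It began 46 bases before the start of Cxcl13 but only 6 bases before that of Cx3cl1. These matches describe the letters given and were not tested against the levels below. Other forms of these motifs were not searched for, so unmarked bases may hold them.

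Depth, read from the steps between low values, came to 20.2 to 27.1 M mapped fragments (M, mega) per library, and 9878 to 11392 genes reached 1 FPKM. Several marker genes followed the gates: the 6 fibroblast markers (Col1a1, Col1a2, Col3a1, Pdgfra, Dcn and Lum) summed to 4992 to 6780 FPKM in stromal libraries, the 4 basal markers (Krt5, Krt14, Trp63 and Col17a1) to 2537 to 2571 FPKM in basal libraries, and the luminal secretory gene Pbsn (probasin) had 17563 to 33704 FPKM in Sca-1- luminal libraries and at most 4001 FPKM in any other library. Krt8 and Krt18 did not separate basal from luminal libraries, with 607 to 1234 FPKM of Krt8 in basal and 256 to 2133 FPKM in Sca-1- luminal libraries. The sort marker Cd24a went against the gate in Sca-1+ luminal replicate 1, which had 197 FPKM beside 226 and 199 FPKM in the basal (CD24low) libraries. The Sca-1+ luminal libraries stood apart from each other. Their fibroblast markers summed to 328 to 4736 FPKM, and the median marker lay at 96.3%, 44.6% and 5.98% of the stromal mean in replicates 1, 2 and 3. Of the leukocyte markers, Ptprc (CD45), Itgam, Cd3e and Cd79a stayed under 1 FPKM in all 10 libraries. Csf1r and Laptm5 stayed under 1 FPKM in stromal and basal libraries but reached it in a library of each luminal group. Tyrobp, Cd68 and Lyz2 reached 1 FPKM in a library of every group. The 10 leukocyte markers summed to 15.4 to 25.2 FPKM in stromal and 17.8 to 32.2 FPKM in basal libraries. The sums of 194 to 360 FPKM in Sca-1+ luminal and 116 to 499 FPKM in Sca-1- luminal libraries were mostly Cd52, which had 172 to 334 FPKM in Sca-1+ luminal and 96.4 to 492 FPKM in Sca-1- luminal libraries. The 6 endothelial markers summed to 5.02 to 30.4 FPKM over all libraries. They came to 5.11 to 30.4 FPKM in Sca-1+ luminal, against 11.3 to 14.5 FPKM in stromal libraries. The 5 smooth muscle markers (Acta2, Myh11, Cnn1, Actg2 and Tagln) summed to 21.4 to 309 FPKM in Sca-1+ luminal libraries. Their sums were 98.7 to 188 FPKM in stromal, 96.9 to 199 FPKM in basal and 52.4 to 75.6 FPKM in Sca-1- luminal libraries.

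The stromal libraries were the richest in chemokine transcripts. The 10 genes summed to 23604 and 19582 FPKM in stromal libraries, to 1083 and 697 FPKM in basal libraries, to 8296, 4511 and 657 FPKM for replicates 1, 2 and 3 of Sca-1+ luminal cells, and to 205, 117 and 88.4 FPKM in Sca-1- luminal libraries. This was 6.03% and 4.35% of all FPKM in stromal libraries and 0.0143% to 0.0334% in Sca-1- luminal libraries. In these bulk samples, more cells of a producing type and more RNA per cell cannot be told apart. In the plot of levels by library, 8 of the 10 genes have both stromal values above every epithelial one, and the exceptions are Cxcl10 and Cx3cl1.

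**Figure D1:**
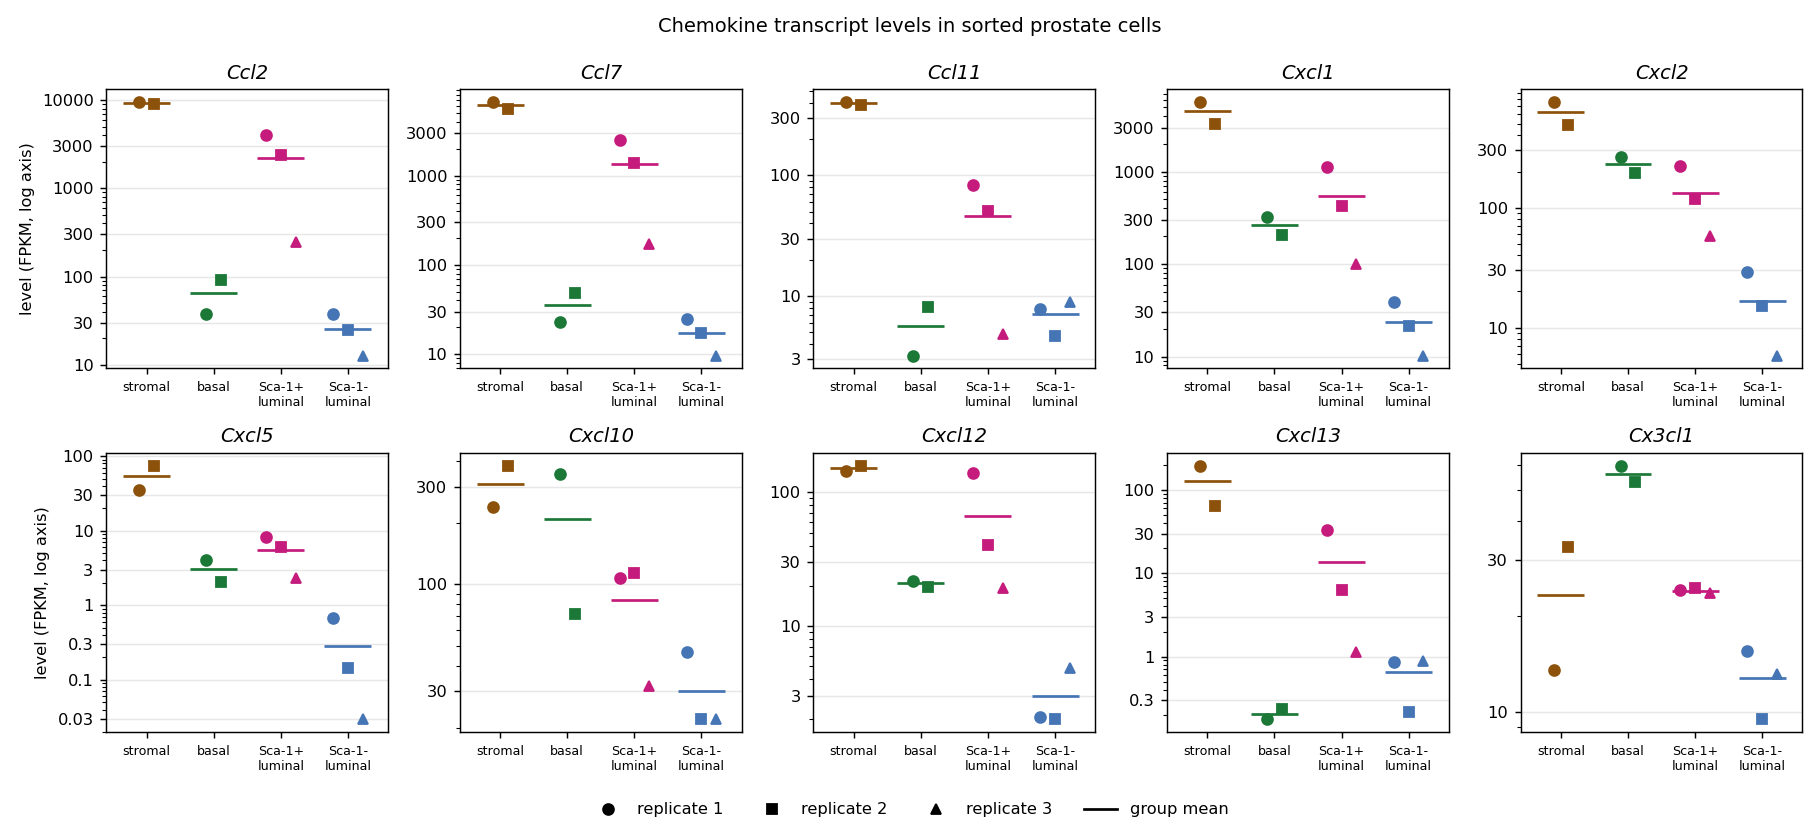
Level of each of the 10 chemokine genes (FPKM, log axis) in stromal, basal, Sca-1+ luminal and Sca-1- luminal libraries, with 1 symbol per library and a line at the group mean. Sca-1+ luminal replicate 3 (triangle) is the lowest library of its group in all 10 panels, and Cx3cl1 is highest in the basal libraries.

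Ccl2 and Ccl7 attract monocytes through CCR2, and both lie beside Ccl11 on chromosome 11 (mm10, 82035577 to 82037452 for Ccl2, 82045712 to 82047523 for Ccl7 and 82057832 to 82062955 for Ccl11). Ccl2 had 9476 and 9084 FPKM in stromal libraries, 37.6 and 91.5 FPKM in basal libraries, 4052, 2356 and 245 FPKM in Sca-1+ luminal libraries, and 37.9, 25.1 and 12.7 FPKM in Sca-1- luminal libraries. It ranked 2 and 3 among all genes in the stromal libraries, and 4, 13 and 252 in the Sca-1+ luminal libraries. The stromal values lay above all others, the Sca-1+ luminal values lay above all basal and Sca-1- luminal ones, and the basal and Sca-1- luminal ranges overlapped.

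Ccl7 had 6667 and 5623 FPKM in stromal libraries, 23.2 and 48.8 FPKM in basal libraries, 2501, 1371 and 171 FPKM in Sca-1+ luminal libraries, and 25, 17.1 and 9.63 FPKM in Sca-1- luminal libraries, in the same order as Ccl2. The fold of group means, stromal over the mean of the 3 epithelial group means, was 12.1 for Ccl2 and 13.2 for Ccl7. Between the luminal groups, Sca-1+ over Sca-1-, it was 87.8 for Ccl2 and 78.1 for Ccl7, and these folds rest on the spread-out Sca-1+ luminal libraries.

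The ratio of Ccl7 to Ccl2 within a library changed little while the levels moved over orders of magnitude. It was 0.704 and 0.619 in stromal libraries, 0.618 and 0.533 in basal libraries, 0.617, 0.582 and 0.7 in Sca-1+ luminal libraries and 0.66, 0.684 and 0.756 in Sca-1- luminal libraries. The highest ratio was 1.42 times the lowest, whereas the highest Ccl2 level was 744 times the lowest. The annotated transcripts of Ccl2 and Ccl7 share no exact stretch longer than 23 bases.

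Ccl11, also called eotaxin, attracts eosinophils through CCR3. It had 406 and 384 FPKM in stromal libraries, 3.21 and 8.12 FPKM in basal libraries, 84.1, 50.4 and 4.9 FPKM in Sca-1+ luminal libraries, and 7.85, 4.65 and 8.96 FPKM in Sca-1- luminal libraries. Stromal values stood above all others, and the 3 epithelial groups overlapped. Sca-1+ luminal replicate 3 lay inside the Sca-1- luminal range, so the log2 difference between the luminal groups, 1.90 over all 3 Sca-1+ libraries, was -0.43 with replicate 3 as the only Sca-1+ library.

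Ccl11 did not keep a fixed ratio to its neighbour Ccl2. The ratio was 0.0428 and 0.0422 in stromal libraries, 0.0854 and 0.0887 in basal libraries, 0.0208, 0.0214 and 0.02 in Sca-1+ luminal libraries and 0.207, 0.185 and 0.703 in Sca-1- luminal libraries. The groups did not overlap in this ratio. All 3 Sca-1+ luminal libraries, replicate 3 included, lay below both stromal libraries in it.

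Cxcl1, Cxcl2 and Cxcl5, ligands of the neutrophil receptor CXCR2, lie on chromosome 5 (mm10, 90891245 to 90893115, 90903899 to 90905938 and 90759298 to 90761625). Cxcl1 had 5668 and 3291 FPKM in stromal libraries, 323 and 206 FPKM in basal libraries, 1123, 425 and 99.8 FPKM in Sca-1+ luminal libraries, and 38.9, 21.5 and 10.2 FPKM in Sca-1- luminal libraries. Stromal values were the highest and Sca-1- luminal values the lowest, with basal values inside the Sca-1+ luminal range. Its fold of group means was 16.1 for stromal over epithelial, 11.2 for basal over Sca-1- luminal and 23.3 for Sca-1+ over Sca-1- luminal.

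Cxcl2 had 760 and 491 FPKM in stromal libraries, 264 and 196 FPKM in basal libraries, 224, 117 and 58.4 FPKM in Sca-1+ luminal libraries, and 29.1, 15.1 and 5.82 FPKM in Sca-1- luminal libraries. The order of the groups was stromal, basal, Sca-1+ luminal and Sca-1- luminal by mean, and only basal and Sca-1+ luminal overlapped. Its stromal over epithelial fold of 4.94 and its basal over Sca-1- luminal fold of 13.8 stand beside 16.1 and 11.2 for Cxcl1. Cxcl2 shares an exact stretch of 110 bases with its near copy Cxcl3, so fragments of these genes may have been assigned to either, and its longest stretch shared with Cxcl1 is 23 bases.

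The balance of Cxcl2 to Cxcl1 differed between stroma and the other groups. The ratio was 0.134 and 0.149 in stromal libraries, 0.817 and 0.952 in basal libraries, 0.2, 0.275 and 0.585 in Sca-1+ luminal libraries, and 0.748, 0.702 and 0.568 in Sca-1- luminal libraries. Stromal ratios were the lowest and basal ratios the highest, and Sca-1+ luminal replicate 3 fell within the Sca-1- luminal range.

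**Figure D2:**
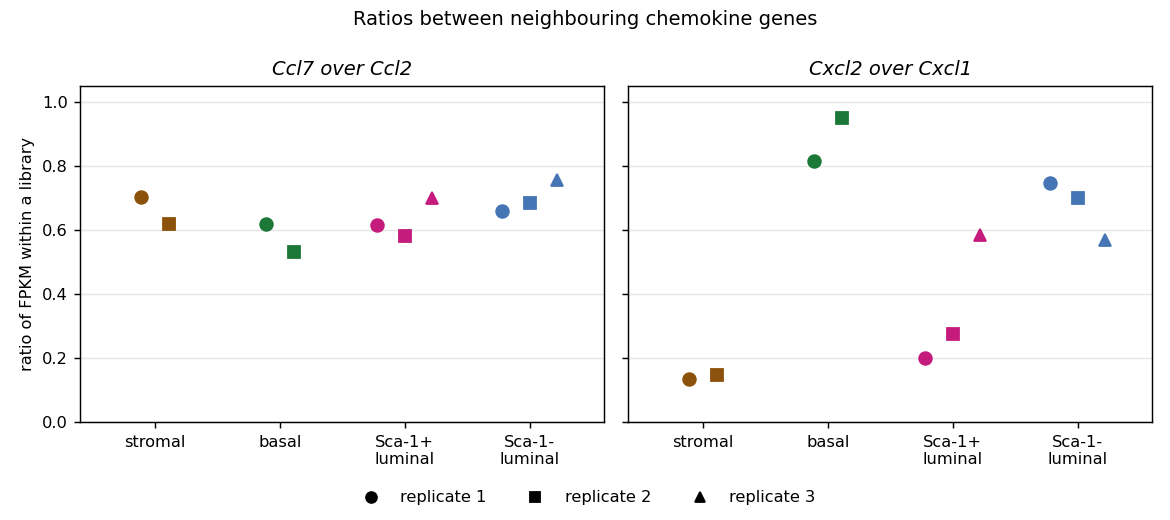
Ratio of FPKM within a library for Ccl7 over Ccl2 and for Cxcl2 over Cxcl1, by group, with 1 symbol per library. Ccl7 over Ccl2 stays between 0.533 and 0.756 in all 10 libraries, whereas Cxcl2 over Cxcl1 is 0.134 and 0.149 in stromal and 0.817 and 0.952 in basal libraries.

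Cxcl5 had 35.1 and 74.5 FPKM in stromal libraries, 4 and 2.08 FPKM in basal libraries, 8.16, 6.08 and 2.31 FPKM in Sca-1+ luminal libraries, and 0.686, 0.144 and 0.0295 FPKM in Sca-1- luminal libraries. The Sca-1- luminal values correspond to about 25, 5 and 1 fragments, so they carry a wide counting error. Stromal values were above and Sca-1- luminal values below all others, and basal and Sca-1+ luminal ranges overlapped. The basal and Sca-1+ luminal values of Cxcl5 were below those of Cxcl1 and Cxcl2 in the same libraries, on the length-scaled FPKM measure.

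Immediate early genes, which tissue dissociation can induce, were measured beside these inflammatory members. The 7 genes Fos, Fosb, Jun, Junb, Egr1, Atf3 and Ier2 summed to 2746 to 2885 FPKM in stromal, 1998 to 4684 FPKM in basal, 2213 to 3704 FPKM in Sca-1+ luminal and 2374 to 3904 FPKM in Sca-1- luminal libraries, and the ranges of all 4 groups overlapped in this sum. Single genes did separate groups: Junb had 1095 to 1348 FPKM in stromal, 605 to 1052 FPKM in basal and 563 to 1558 FPKM in Sca-1+ luminal libraries, against 279 to 462 FPKM in Sca-1- luminal libraries, and Atf3 had 185 to 262 FPKM in stromal libraries and at least 571 FPKM in every other library. Their part in the chemokine levels was not tested.

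Cxcl10 (chromosome 5, 92346639 to 92348889) is induced by interferon. It had 238 and 380 FPKM in stromal libraries, 346 and 71.7 FPKM in basal libraries, 107, 114 and 31.9 FPKM in Sca-1+ luminal libraries, and 46.9, 21.9 and 22 FPKM in Sca-1- luminal libraries. The basal libraries lay far apart, and neighbouring groups overlapped at every step of the order. Stromal values stood above those of both luminal groups, and basal values above the Sca-1- luminal ones. Cxcl10 was the most abundant of the 10 genes in basal replicate 1, with 32% of their summed FPKM, against 1.01% and 1.94% in stromal libraries. It was also the most abundant in Sca-1- luminal replicates 1 and 3, with 22.9% and 24.9%, but made up 10.3% in basal replicate 2. The gene lies within the Art3 locus on the other strand, and because the strand of counting is not given in the sources used here, reads of the pair cannot be told apart.

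Cxcl12 (chromosome 6, 117168535 to 117181368) binds CXCR4 and the scavenging receptor ACKR3. It had 145 and 158 FPKM in stromal libraries, 21.9 and 19.7 FPKM in basal libraries, 140, 40.6 and 19.1 FPKM in Sca-1+ luminal libraries, and 2.1, 2 and 4.82 FPKM in Sca-1- luminal libraries. Sca-1+ luminal replicate 1 came close to the lower stromal library, at 92.4% of the stromal mean, and replicate 3 lay at 12.6%, just under the basal values. Both basal libraries and all 3 Sca-1+ luminal libraries were above every Sca-1- luminal library.

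Cxcl13 (chromosome 5, 95956939 to 95961068) attracts B cells. It had 195 and 64.4 FPKM in stromal libraries, 0.176 and 0.232 FPKM in basal libraries, 33, 6.29 and 1.14 FPKM in Sca-1+ luminal libraries, and 0.87, 0.217 and 0.89 FPKM in Sca-1- luminal libraries. The basal values rest on about 4 and 5 fragments and the Sca-1- luminal values on about 21, 5 and 20. The stromal mean was 27.1 times the epithelial mean, with stromal libraries that lay far apart, and basal values overlapped those of Sca-1- luminal libraries.

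Cx3cl1 (chromosome 8, 94772180 to 94782426) differed from the other members in its order. It had 13.6 and 33.2 FPKM in stromal libraries, 59.6 and 53.1 FPKM in basal libraries, 24.2, 24.5 and 23.7 FPKM in Sca-1+ luminal libraries, and 15.6, 9.48 and 13.2 FPKM in Sca-1- luminal libraries. Basal values lay above all others, and stromal values overlapped both luminal groups. It spanned 6.29-fold over the 10 libraries, the smallest span of the 10 genes, against 2522-fold for Cxcl5, the largest. Its level was also the most even of the 10 among the Sca-1+ luminal libraries.

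The luminal comparison sets cells sorted as Sca-1+ beside those sorted as Sca-1-. Of the 10 genes, 8 had every Sca-1+ luminal library above every Sca-1- luminal library, as did 29.3% of all genes tested, and Ccl11 and Cxcl10 overlapped. The median log2 difference of the 10 was 2.65, beside 0.19 over all genes tested. In the basal against Sca-1- luminal comparison, 6 of the 10 were above in both basal libraries, as were 33.3% of all genes, with a median log2 difference of 1.86, beside -0.05 over all genes. In stromal against epithelial libraries, 8 of the 10 were above in both stromal libraries, as were 9.22% of all genes, with a median of 4.58, beside -0.12. Because the genes were chosen with these levels known, no more than a description is read from those shares, and the comparisons share libraries.

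Within the Sca-1+ luminal group, most of the chemokines and the fibroblast markers were lowest in the same library. Replicate 3 was the lowest of the 3 libraries for all 10 genes, and for 9 of them the authors' confidence interval in replicate 3 was separate from those in replicates 1 and 2, the exception being Cx3cl1. The fold of replicate 1 over replicate 3 was 29 for Cxcl13, 17.2 for Ccl11, 16.6 for Ccl2 and 14.6 for Ccl7, but 3.84 for Cxcl2, 3.53 for Cxcl5, 3.37 for Cxcl10 and 1.02 for Cx3cl1. The median of the 10 genes was 35.3%, 20.5% and 3.5% of the stromal mean in replicates 1, 2 and 3, beside 96.3%, 44.6% and 5.98% for the median fibroblast marker. The part of stromal cells in these Sca-1+ luminal values was not tested.

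**Figure D3:**
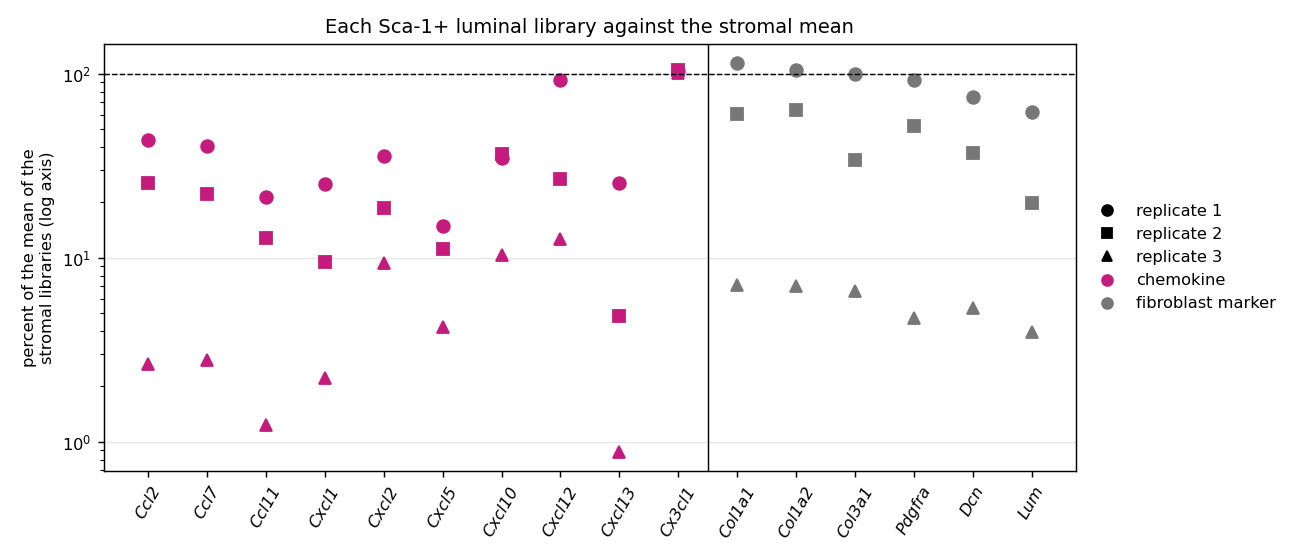
Level in each Sca-1+ luminal library as a percent of the mean of the 2 stromal libraries (log axis), for the 10 chemokine genes and the 6 fibroblast markers. Replicate 1 lies between 62.3% and 114% for the fibroblast markers, and replicate 3 between 3.96% and 7.1%, and Cx3cl1 is near 100% in all 3 libraries.

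In basal libraries the 10 genes lay on both sides of the fibroblast markers. The median fibroblast marker was at 1.96% and 2.7% of the stromal mean in basal libraries, beside 7.25% and 4.19% for the median of the 10 genes. Single fibroblast markers ran between 0.448% (Lum) and 15% (Dcn) in basal replicate 1. Ccl2 stood at 0.405% and 0.986% of the stromal mean in basal libraries, Ccl7 at 0.378% and 0.794% and Cxcl13 at 0.136% and 0.179%, whereas Cxcl2 stood at 42.2% and 31.3%. Of the summed chemokine FPKM in basal libraries, Cxcl1 made up 29.8% and 29.5% and Cxcl2 24.4% and 28.1%, whereas Ccl2 made up 3.47% and 13.1%. In stromal libraries, Cxcl1 made up 24% and 16.8%, Cxcl2 3.22% and 2.51%, and Ccl2 40.1% and 46.4%. In Sca-1- luminal libraries the median fibroblast marker was at 0.894%, 0.49% and 1.79% and the median of the 10 genes at 1.32%, 0.829% and 0.808% of the stromal mean.

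The likeness of other genes was measured as the root mean square difference of log2(FPKM + 1) over the 10 libraries, each gene centred on its own mean. For Ccl2 the nearest of the 10 was Ccl7 at 0.15, and the nearest other genes were Gfpt2 (hexosamine synthesis) at 0.52 and Penk (proenkephalin) at 0.54, against a median of 3.56 over all genes. For Cxcl1 they were Il6 (the cytokine interleukin 6) at 0.65 and Ptgs2 (the prostaglandin enzyme COX-2) at 0.68, both nearer than the nearest of the 10, Cxcl2 at 1.03. For Cxcl12 they were Lamb1 (a laminin chain) at 0.31 and Mfge8 at 0.39, and for Cxcl13 they were Ifi204 at 0.46 and the cytokine gene Csf2 at 0.49. Slc16a1, a monocarboxylate transporter gene, was nearest to Cxcl2 at 0.38, and Sct (secretin) was nearest to Cxcl5 at 0.41. The genes nearest to Cx3cl1, Eva1c and Slc29a2 at 0.26 each, stand beside a median of 1.00, since Cx3cl1 itself varied little.

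The remaining genes of the pathway were not chosen as members, and 58 of 84 of them could be tested (limma on log2(FPKM + 1), Benjamini-Hochberg adjusted p under 0.05 over 12544 genes). Their lists were drawn up with earlier results of these libraries known. Of the 27 other chemokine ligands, 18 were tested. Between the luminal groups 7 rose in Sca-1+ cells and 1 fell, beside 21.8% of all genes that rose and 13.4% that fell. Between basal and Sca-1- luminal cells 3 rose and 3 fell, beside 20.2% and 26%. Between stromal and epithelial cells 5 rose and 6 fell, beside 15.8% and 18.5%. Without stromal replicate 1, 4 rose and limma called 0 as lower, with 5 lower at an unadjusted p under 0.05, and without stromal replicate 2, 1 rose and 1 fell. Without Sca-1+ luminal replicate 3, 5 rose in the basal comparison. Ccl6 and Ccl9, 2 of the 7 that rose in Sca-1+ cells, reached 1 FPKM only in that group, and Ccl21a, the 1 that fell, only in Sca-1- luminal libraries, so the filter on low values had favoured these calls. Ccl21a was also among the 3 that fell in basal and the 6 that fell in stromal cells, with the same limit.

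Cxcl14, a chemokine of many epithelia and fibroblasts, had 134 and 236 FPKM in stromal, 9.53 and 11.9 FPKM in basal, 194, 211 and 13.9 FPKM in Sca-1+ luminal and 2.01, 1.36 and 3.57 FPKM in Sca-1- luminal libraries. It rose in Sca-1+ over Sca-1- luminal cells (log2 difference 4.73, SE 0.861, limma adjusted p = 0.00389), with replicate 3 again the lowest of its group. It also rose in stromal over epithelial cells (3.61, SE 0.836, limma adjusted p = 0.01), a call that was lost without either stromal library.

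Of the ligands that fell in stromal against epithelial cells, 4 were Ccl20, Cxcl15, Cxcl16 and Cxcl17, and the calls of Ccl20, Cxcl15 and Cxcl16 were lost without either stromal library and that of Cxcl17 without stromal replicate 1. The call of Cxcl16 was also lost without either basal library. Ccl20, a ligand of CCR6, had 0.754 and 0.384 FPKM in stromal, 35.9 and 30.3 FPKM in basal, 1.75, 2.04 and 0.0679 FPKM in Sca-1+ luminal and 1.52, 0.894 and 0.141 FPKM in Sca-1- luminal libraries, and rose in basal over Sca-1- luminal cells (log2 difference 4.27, SE 0.473, limma adjusted p = 0.000125). Cxcl16, which like Cx3cl1 is made as a membrane protein, had 32.9 and 47.3 FPKM in stromal, 212 and 212 FPKM in basal, 81.4, 114 and 197 FPKM in Sca-1+ luminal and 38, 38 and 19.1 FPKM in Sca-1- luminal libraries. It rose in basal over Sca-1- luminal cells (2.76, SE 0.41, limma adjusted p = 0.000604) and in Sca-1+ over Sca-1- luminal cells (1.98, SE 0.366, limma adjusted p = 0.00421), and its highest Sca-1+ luminal library was replicate 3.

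Cxcl15 and Cxcl17, chemokines of mucosal epithelia, had their highest group means in Sca-1+ luminal cells. Cxcl15 had 0.233 and 0.323 FPKM in stromal, 0.94 and 1.25 FPKM in basal, 6.19, 13.2 and 27.7 FPKM in Sca-1+ luminal and 1.12, 0.544 and 0.492 FPKM in Sca-1- luminal libraries, and rose in Sca-1+ over Sca-1- luminal cells (log2 difference 3.08, SE 0.426, limma adjusted p = 0.0012). Cxcl17 had 1.76 and 4.05 FPKM in stromal, 1.07 and 2.32 FPKM in basal, 31.3, 74.2 and 135 FPKM in Sca-1+ luminal and 20.7, 28.5 and 12.9 FPKM in Sca-1- luminal libraries. It rose in Sca-1+ over Sca-1- luminal cells (1.74, SE 0.509, limma adjusted p = 0.027). That call was lost when replicate 2 of the Sca-1+ group, or replicate 1 or 3 of the Sca-1- group, was left out. It was also lost with median-of-ratios scaling and with no filter on low values. In basal against Sca-1- luminal cells Cxcl17 fell (-2.98, SE 0.569, limma adjusted p = 0.0023). Replicate 3, the lowest Sca-1+ luminal library for all 10 genes, was the highest for both Cxcl15 and Cxcl17.

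**Figure D4:**
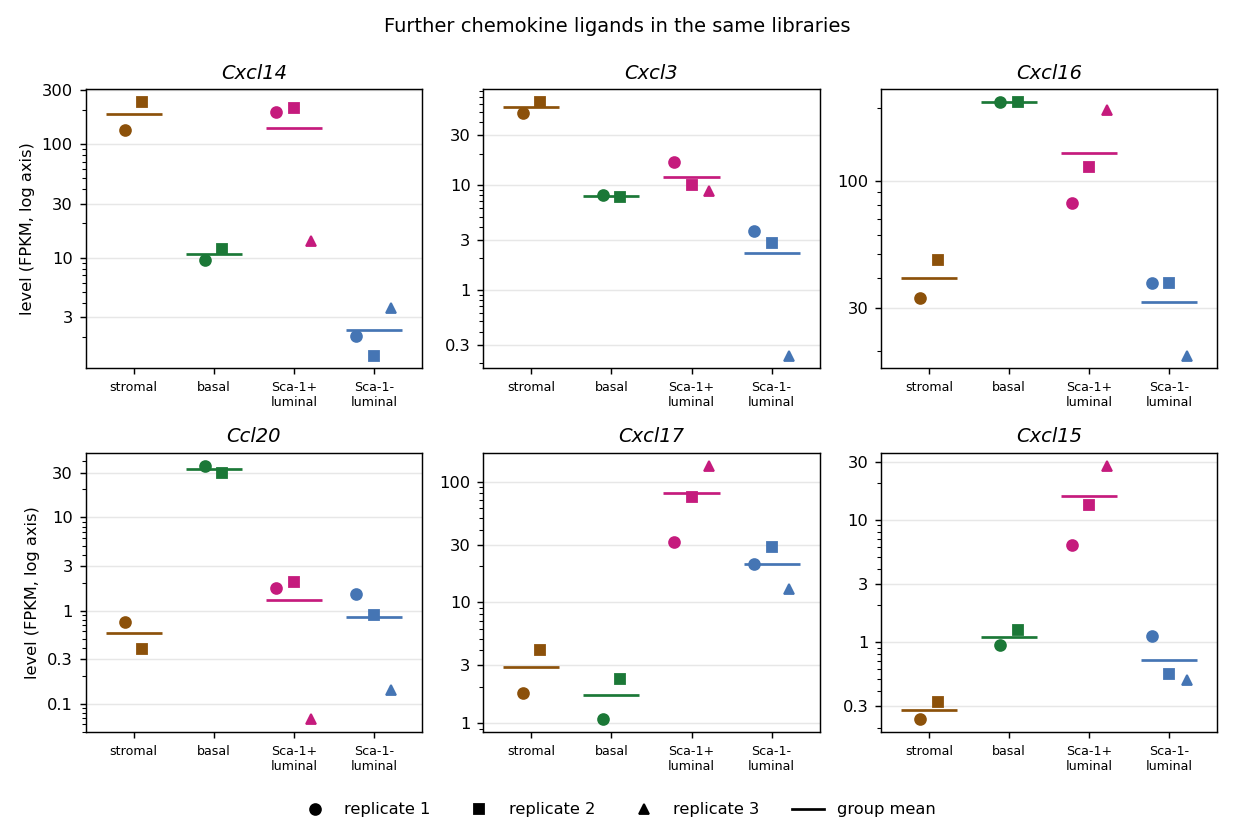
Level (FPKM, log axis) of 6 further chemokine ligands in stromal, basal, Sca-1+ luminal and Sca-1- luminal libraries, with 1 symbol per library and a line at the group mean. Sca-1+ luminal replicate 3 (triangle) is the lowest of its group for Cxcl14 (13.9 FPKM) and the highest for Cxcl16, Cxcl17 and Cxcl15 (197, 135 and 27.7 FPKM).

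Cxcl3, the near copy of Cxcl2, rose in stromal over epithelial cells (log2 difference 3.06, SE 0.443, limma adjusted p = 0.00143) and in Sca-1+ over Sca-1- luminal cells (2.16, SE 0.456, limma adjusted p = 0.00728), where the call was lost with replicate 3 as the only Sca-1+ library. Its levels were 48.8 and 62.4 FPKM in stromal, 8.07 and 7.65 FPKM in basal, 16.8, 9.98 and 8.88 FPKM in Sca-1+ luminal and 3.65, 2.8 and 0.235 FPKM in Sca-1- luminal libraries, and they share the uncertainty of Cxcl2. Cxcl9, an interferon-induced ligand of CXCR3 like Cxcl10, rose in stromal over epithelial cells (2.42, SE 0.587, limma adjusted p = 0.0122; lost without stromal replicate 2) and had 4.25 and 16.2 FPKM in stromal, 0.295 and 0.952 FPKM in basal, 2.12, 6.56 and 0.314 FPKM in Sca-1+ luminal and 0.192, 0.155 and 0.0319 FPKM in Sca-1- luminal libraries. Ccl21a, a ligand of CCR7 with near copies in the genome and therefore uncertain, had 0.27 and 0.123 FPKM in stromal, 0.261 and 0.127 FPKM in basal, 0.326, 0.305 and 0.16 FPKM in Sca-1+ luminal and 10.2, 5.13 and 5.35 FPKM in Sca-1- luminal libraries. Those levels are given with no test, because Ccl21a passed the filter on low values only through the group where it is high. Ccl3, an inflammatory ligand of CCR1, fell in basal against Sca-1- luminal cells (-1.38, SE 0.313, limma adjusted p = 0.00568), with 1.3 and 1.44 FPKM in basal against 5.73, 3.02 and 7.69 FPKM in Sca-1- luminal libraries.

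Most conventional receptors of these ligands were almost silent in all 4 populations, from which lineage-positive cells had been gated out. Of 18 receptors, 16 stayed under 1 FPKM in every library, 4 of them listed at 0 throughout, and the highest value among the 16 was 0.242 FPKM. Ccr7 and Cxcr4 reached 1 FPKM in some library and were tested. Their highest values were 3.36 FPKM of Ccr7 in Sca-1+ luminal replicate 1 and 2.31 FPKM of Cxcr4 in Sca-1+ luminal replicate 3. With all 10 libraries, neither was called by limma in any of the 3 comparisons, nor at an unadjusted p under 0.05. Without Sca-1+ luminal replicate 1, and likewise without replicate 3, limma had 1 receptor higher in Sca-1+ over Sca-1- luminal cells at an unadjusted p under 0.05. The CCR2, CXCR2, CXCR3 and CX3CR1 genes, whose ligands were abundant, were among the 16.

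Atypical receptors bind chemokines without the usual G protein signal. Of 5 such genes 4 were tested and 3 rose in stromal over epithelial cells, beside 15.8% of all genes. Ackr3, the scavenger of Cxcl12, had 154 and 79.7 FPKM in stromal, 14 and 7.66 FPKM in basal, 80.8, 32 and 6.22 FPKM in Sca-1+ luminal and 6.66, 2.39 and 15.9 FPKM in Sca-1- luminal libraries (stromal minus epithelial log2 difference 3.08, SE 0.812, limma adjusted p = 0.0173). Ccrl2, a chemerin-binding receptor, rose by 2.34 (SE 0.571, limma adjusted p = 0.0125) and Ackr2, a scavenger of CC chemokines, by 1.67 (SE 0.37, limma adjusted p = 0.00835). The calls of Ackr3 and Ccrl2 were lost without either stromal library, and that of Ackr2 without stromal replicate 1. Ackr2 had 4.4 and 2.08 FPKM in stromal libraries and reached 1 FPKM elsewhere only in Sca-1+ luminal replicate 1 (2.04 FPKM). The filter on low values had therefore favoured its call, which is counted among the 3. In the luminal comparison Ccrl2 rose (1.90, SE 0.588, limma adjusted p = 0.033), with 36.6, 25.2 and 4.77 FPKM in Sca-1+ luminal against 5.57, 3.79 and 2.51 FPKM in Sca-1- luminal libraries, but this call was lost in 8 of the alternative settings.

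Proteases trim or shed chemokines. Of 6 tested, 4 rose in stromal over epithelial cells, beside 15.8% of all genes, and 4 rose in Sca-1+ over Sca-1- luminal cells, beside 21.8%. The 4 of the stromal comparison include Mmp9, whose call the filter on low values had favoured. Without either stromal library, 1 of 5 rose in stromal over epithelial cells. Mmp2, a gelatinase that can cleave Ccl7 and Cxcl12, had 315 and 504 FPKM in stromal, 12.6 and 12.1 FPKM in basal, 235, 127 and 24.6 FPKM in Sca-1+ luminal and 2.54, 1.91 and 5.12 FPKM in Sca-1- luminal libraries (stromal minus epithelial log2 difference 4.56, SE 0.661, limma adjusted p = 0.00143). Over Sca-1+ luminal replicates 1, 2 and 3 its level descended in the same order as the median fibroblast marker (96.3%, 44.6% and 5.98% of the stromal mean), whose part was not tested. Adam17, a sheddase of Cx3cl1, rose in Sca-1+ over Sca-1- luminal cells (1.44, SE 0.305, limma adjusted p = 0.00741), with 12.6, 7.32 and 9.38 FPKM in Sca-1+ luminal against 4.16, 1.53 and 3.54 FPKM in Sca-1- luminal libraries, a call lost with replicate 3 as the only Sca-1+ library. Mmp14, a membrane metalloprotease, rose in basal over Sca-1- luminal cells (4.59, SE 0.646, limma adjusted p = 0.00045), and Dpp4, which inactivates Cxcl12 and Cxcl10 by trimming, fell there (-3.81, SE 0.479, limma adjusted p = 0.000243). Dpp4 had 1.01 and 0.7 FPKM in basal against 28.5, 17.8 and 30.5 FPKM in Sca-1- luminal libraries. Mmp9 was low, with 1.37 and 1.66 FPKM in stromal libraries 0.113 and 0.179 FPKM in basal libraries, 0.48, 0.675 and 0.0408 FPKM in Sca-1+ luminal libraries and a listed value of 0 in the Sca-1- luminal libraries. It is given with no test, because it passed the filter on low values only through the stromal libraries, and with either of them left out it was not among the genes tested.

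Genes of IL-1, TNF, IL-17 and NF-kB signalling, which lie upstream of many inflammatory chemokines, were tested for 19 genes. Of these, 15 rose and 1 fell in Sca-1+ over Sca-1- luminal cells, beside 21.8% and 13.4% of all genes. In basal over Sca-1- luminal cells, with the same Sca-1- luminal libraries, 14 rose and 1 fell, beside 20.2% and 26%. In stromal over epithelial cells 10 rose, beside 15.8%. The median log2 differences of the list were 1.70, 1.63 and 1.17 in that order of comparisons, beside 0.19, -0.05 and -0.12 over all genes. With Sca-1+ luminal replicate 3 as the only library of its group, and so with no spread of its own, fewer were called in the luminal comparison. The median fibroblast marker of that library was at 5.98% of the stromal mean. The part of stromal cells in the luminal differences of this list was not tested. Without stromal replicate 1, 6 rose in stromal over epithelial cells, and without stromal replicate 2, 5 rose. Over all pathway genes, 19 rose in basal over Sca-1- luminal cells, against 13 without basal replicate 1 and 16 without basal replicate 2. Genes of this list were among those that lost the call in both fits. In the luminal comparison the call of Il1r1, counted among the 15, was lost in 11 of the alternative settings.

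Tnfaip3, an inhibitor of NF-kB that is itself an NF-kB target, had 118 and 153 FPKM in stromal, 59.7 and 54.2 FPKM in basal, 111, 62.6 and 33.2 FPKM in Sca-1+ luminal and 7.3, 4.27 and 5.87 FPKM in Sca-1- luminal libraries. It rose by 2.22 in stromal over epithelial cells (SE 0.371, limma adjusted p = 0.00259), by 3.11 in basal over Sca-1- luminal cells (SE 0.427, limma adjusted p = 0.000389) and by 3.22 in Sca-1+ over Sca-1- luminal cells (SE 0.382, limma adjusted p = 0.000615) on the log2 scale. The Sca-1- luminal libraries were the low ones, and the other groups lay above them in every library.

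Nfkb2 and Relb encode subunits of the noncanonical NF-kB pathway. Nfkb2 had 76.6 and 86.1 FPKM in stromal, 89 and 85.4 FPKM in basal, 84.3, 67.8 and 87.9 FPKM in Sca-1+ luminal and 16.6, 20 and 6.39 FPKM in Sca-1- luminal libraries. It rose in Sca-1+ over Sca-1- luminal cells (2.53, SE 0.349, limma adjusted p = 0.0012), and its log2 difference in stromal over epithelial cells was 0.83 (SE 0.339, limma adjusted p = 0.086). Relb rose in basal over Sca-1- luminal cells (2.75, SE 0.481, limma adjusted p = 0.00142).

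Among the receptors of this list, Il1r1, the signalling receptor of interleukin 1, had 129 and 116 FPKM in stromal, 2.48 and 4.09 FPKM in basal, 88.3, 56.6 and 7.47 FPKM in Sca-1+ luminal and 7.48, 5.96 and 5.81 FPKM in Sca-1- luminal libraries. It rose in stromal over epithelial cells (3.58, SE 0.683, limma adjusted p = 0.00434), a call that was lost without stromal replicate 1. Tnfrsf1b, the TNF receptor TNFR2, rose in Sca-1+ over Sca-1- luminal cells (3.12, SE 0.46, limma adjusted p = 0.00156) and in basal over Sca-1- luminal cells (2.97, SE 0.515, limma adjusted p = 0.00136). Il17rc, a subunit of the IL-17 receptor, was the gene that fell in both, by 1.07 in Sca-1+ luminal cells (SE 0.208, limma adjusted p = 0.00519) and by 1.96 in basal cells (SE 0.233, limma adjusted p = 0.000183), with 5.42 and 4.77 FPKM in basal, 11.1, 11.1 and 8.67 FPKM in Sca-1+ luminal and 18.9, 23.3 and 26.4 FPKM in Sca-1- luminal libraries.

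**Figure D5:**
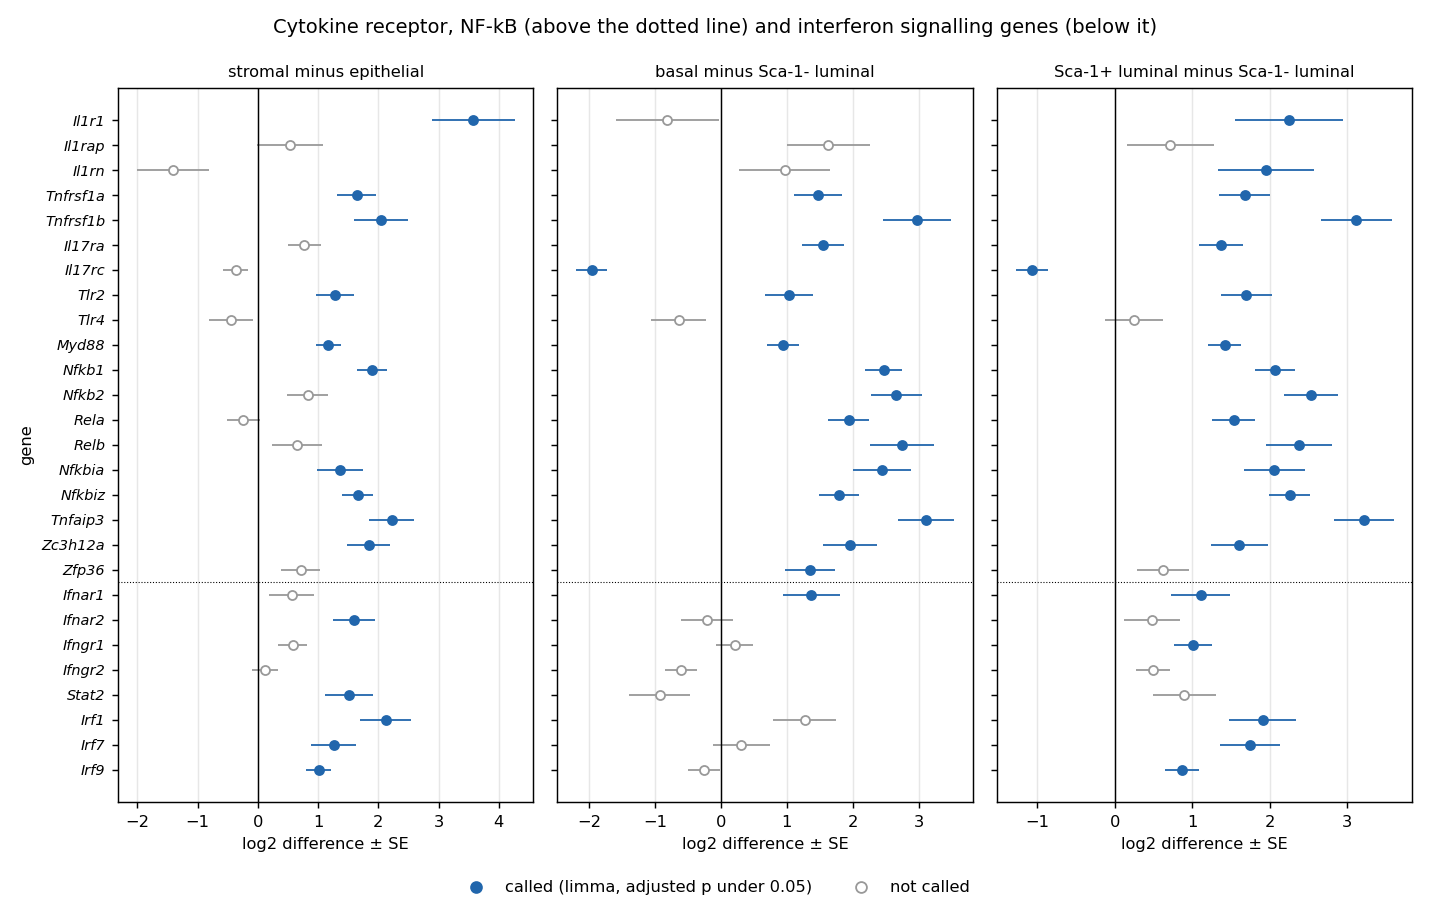
Log2 difference with its SE for the 19 IL-1, TNF, IL-17 and NF-kB genes and 8 interferon genes in stromal minus epithelial, basal minus Sca-1- luminal and Sca-1+ minus Sca-1- luminal libraries, filled where limma called the gene. Of the 19 genes 10, 14 and 15 rose in these comparisons, and of the 8 interferon genes shown 5, 1 and 5.

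Interferon signalling genes, which bear on Cxcl10, rose in 6 of 9 cases in Sca-1+ over Sca-1- luminal cells, beside 21.8% of all genes, and in 6 of 9 in stromal over epithelial cells, beside 15.8%. In basal over Sca-1- luminal cells 1 of 9 rose, beside 20.2%. Without Sca-1+ luminal replicate 2, 3 of 9 rose in the luminal comparison. Irf1, a transcription factor induced by interferon, had 99.2 and 101 FPKM in stromal, 31.1 and 21.6 FPKM in basal, 69, 40.8 and 24.4 FPKM in Sca-1+ luminal and 13.3, 5.2 and 14.8 FPKM in Sca-1- luminal libraries, and rose in stromal over epithelial cells (2.12, SE 0.416, limma adjusted p = 0.00491) and in Sca-1+ over Sca-1- luminal cells (1.91, SE 0.428, limma adjusted p = 0.00947). The first of these calls was lost without stromal replicate 1. Irf7 (1.75, SE 0.386, limma adjusted p = 0.00875) rose in Sca-1+ over Sca-1- luminal cells. With Sca-1+ luminal replicate 3 as the only library of its group, limma called 0 of 9 in that comparison, and 4 of 9 were higher at an unadjusted p under 0.05. Without stromal replicate 1, 4 of 9 rose in stromal over epithelial cells, and without stromal replicate 2, 1 of 9.

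In stromal cells Ifnar2 and Stat2, a chain of the type I interferon receptor and a factor activated by it, rose by 1.59 (SE 0.349, limma adjusted p = 0.00793) and 1.51 (SE 0.397, limma adjusted p = 0.0173) over epithelial cells. The call of Ifnar2 was lost without stromal replicate 2 and that of Stat2 without either stromal library. The 1 interferon gene called in basal over Sca-1- luminal cells was Ifnar1 (1.37, SE 0.432, limma adjusted p = 0.0261), a call lost without either basal library or without Sca-1- luminal replicate 2.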

How the data were processed

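RNA from 10 libraries of sorted mouse prostate cells was analysed. Per the labels' protocols, total RNA (NucleoSpin) was made into cDNA with random and poly(dT) priming (NuGEN Ovation V2), built into TruSeq DNA libraries and sequenced on a HiSeq. Reads were processed with bcl2fastq 1.8.3, TopHat and Cufflinks on mm10, per the submitters' processing notes. For TopHat and Cufflinks the version is not given in the sources used here. Per the file headers, the authors deposited FPKM with confidence intervals for 63241 UCSC transcripts. The deposited coverage, per the file headers, was used in no test.

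Transcripts were named by locus from GENCODE M21 and RefSeq GRCm38.p6: 55047 (87%) matched by shared ends within 10 nt or by an overlap of at least 0.5. Transcripts under 300 nt (8006) were left out, as were 7 genes with a transcript that Cufflinks did not estimate, and FPKM was summed per gene. Depth came from 5735 isolated transcripts, whose low values lay within 0.05 of whole fragments for 87.4% to 91.2%. Fragment numbers cover counting error only and were not rebuilt for all genes, so no count test was run.

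Differences came from limma 3.58.1 (R 4.3.3) on log2(FPKM + 1), a scale that understates changes of low genes, with 1 mean for each of the 4 groups, all 10 libraries, a trended prior and 6 residual degrees of freedom. Epithelial stands for the mean of the basal, Sca-1+ luminal and Sca-1- luminal group means, each given the same weight. Genes at 1 FPKM in at least 2 libraries were tested, and Benjamini-Hochberg adjusted p under 0.05 was called. The fit was tested on simulated data. Python 3.11.15, pandas 2.3.3 and matplotlib 3.10.9 made tables and figures. The 10 genes and all lists were chosen with earlier results of these data known. A few genes of the lists are counted there but not reported here by name. Named were the 10 genes, up to 3 called genes per list, comparison and direction with the largest log2 difference, markers, and the nearest genes by pattern. A replicate number follows the order of listing. Alternatives were another pseudocount, no filter, median-of-ratios scaling, quantile normalization, short transcripts kept, names by shared ends only, the highest transcript alone, each library left out, and Sca-1+ luminal replicate 3 alone.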

Additional observations from a re-analysis of the deposited data

How the results depend on the processing

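No paired analysis was possible because the labels carry no replicate numbers, and libraries were numbered in the order of listing. Of the log2 differences of the 10 chemokine genes under the alternatives, 523 moved by less than the spread between libraries, 14 moved by more and 3 changed sign. Many of the 523 could not move, so that number is not a measure of stability. Leaving out a library of a group outside the comparison, or dropping the filter on low values, leaves these differences unchanged. So do names by shared ends only, because the transcripts of the 10 genes all matched by both ends. With Sca-1+ luminal replicate 3 as the only Sca-1+ library, the Sca-1+ minus Sca-1- difference of Ccl11 was -0.43, against 1.90 with all 3, and those of Ccl2, Ccl7, Cxcl1 and Cxcl12 were 3.35, 3.33, 2.22 and 2.41, against 5.79, 5.62, 4.08 and 3.70. Leaving out 1 library at a time, the basal minus Sca-1- luminal difference of Ccl11 ran between -0.91 and 0.20 (0.20 without basal replicate 1) and the stromal minus epithelial difference of Cx3cl1 between -0.89 and 0.35 (0.35 without stromal replicate 1, -0.89 without stromal replicate 2). No scaling changed the sign of any of the 10. In the luminal comparison 4409 genes were called, 2732 higher and 1677 lower. The split was 2046 to 2399 with median-of-ratios scaling and 1822 to 2684 with quantile normalization, and the median log2 difference of all genes was 0.19, 0.018 and -0.0711 in that order.

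Calls depended most on which libraries were kept. Over fits without 1 library, calls over all genes numbered 2729 to 5239 in the luminal comparison (2758 when Sca-1+ luminal replicate 2 was left out and 2729 when it was replicate 3 of the Sca-1- luminal group), 3721 to 6492 in basal against Sca-1- luminal (main count 5804; 3721 without basal replicate 1, 3743 without basal replicate 2) and 1435 to 4878 in stromal against epithelial (main count 4297; 1435 without stromal replicate 1, 1857 without stromal replicate 2). With Sca-1+ luminal replicate 3 alone, 2011 genes were called in the luminal comparison, and 19 of the pathway genes, against 35. Pathway calls in stromal against epithelial numbered 10 to 38 (main count 34; 15 without stromal replicate 1, 10 without stromal replicate 2). Fits without a library have fewer samples. Where a group is left with 1 library, that library is assumed to vary like the other groups. Of the values of named pathway genes under the alternatives, 736 kept their call and 44 lost it, none with a change of sign.

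Depth limits Cxcl5 in Sca-1- luminal libraries and Cxcl13 in basal and Sca-1- luminal libraries, where 1 to 25 fragments lie behind a value. With a pseudocount of 0.1 the Cxcl5 differences were 4.97 for stromal over epithelial, 3.36 for basal over Sca-1- luminal and 4.09 for Sca-1+ over Sca-1- luminal, against 4.08, 1.64 and 2.25.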
